A study of Mus musculus with 3 samples.

Results

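Ventricular-like heart muscle cells were selected from droplet single-cell RNA sequencing of whole mouse hearts by a rule on 13 marker genes, and 1013 of the 27497 deposited cells met it. A cell was included when at least 3 of 6 ventricular markers (Adra1a, Myh7b, Fhl2, Kcnip2, Hs3st5 and Gm32171) had at least 1 unique molecular identifier (UMI, the tag by which each captured RNA molecule is counted), and when more of these than of 7 atrial markers (Fgf12, Tmem163, Ryr3, Rxfp1, Rgs6, Pdzrn4 and Kcnh7) were detected. The mirror rule, with the marker sets exchanged, gave 1715 atrial-like cells, and the remaining 24769 cells are called other cells here. The rule used measured values, so the levels of the markers, and every contrast of the selected cells with the rest of their own library, are descriptions without a test.

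Ventricular cardiomyocytes are the muscle cells that pump blood into the body and the lungs. Their contraction starts with calcium entry through the L-type channel (Cacna1c) and calcium release through the ryanodine receptor (Ryr2), and it is driven by myosin pulling on actin in sarcomeres that titin (Ttn) holds in register. They draw most of their energy from fatty acids burned in mitochondria, a programme switched on by the coactivator PGC-1 alpha (Ppargc1a) together with ERR and PPAR nuclear receptors, and they repolarise quickly through Kcnd2 channels. Atrial cardiomyocytes secrete natriuretic peptide A (Nppa) and are slowed by vagal acetylcholine through the muscarinic receptor Chrm2 and the Kcnj3 potassium channel.

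The study addressed how heart cells respond to antibodies against the immune checkpoint PD-1 or its ligand PD-L1 when adaptive immunity is missing. All animals were NOD/SCID mice, which cannot form working T and B cells, and they received an isotype control antibody, pembrolizumab (PEM, against PD-1) or atezolizumab (ATZ, against PD-L1) on day 0 and day 7. Whole hearts were taken on day 14 and digested, and 3 hearts per group were pooled into 1 library, so each group had 1 library and no replicate. The sources used here give neither the age nor the sex of the mice. The libraries are named isotype, PD1/PEM and PDL1/ATZ after their titles. The treatment labels of the antibody libraries are the other way round (atezolizumab for the library titled PD1, pembrolizumab for the library titled PDL1), and this conflict could not be settled, so every direction below belongs to a library and not to an antibody.

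The libraries held between 14766346 and 16677883 UMIs. The PDL1/ATZ library stood apart: mitochondrially encoded RNA made up a median of 8.04% of a cell's UMIs, against 27.1% in isotype and 26.9% in PD1/PEM, and 4835 of 30415 gene symbols were read either in PDL1/ATZ alone or in the other libraries alone. Levels are therefore counts per 1000000 nuclear-encoded UMIs (CPM), summed over the cells of a library, and those symbols were left out of the comparison with PDL1/ATZ. Ratios carry 95% intervals that cover counting error only, not differences between hearts. No deposited cell reached 30% mitochondrial UMIs or 2500 detected genes, and cells above those limits are not analysed here.

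The ventricular-like cells numbered 466 of 9510 cells in the isotype library, 4.90% with an exact Clopper-Pearson interval of 4.47 to 5.35. In the PD1/PEM library they numbered 446 of 6388, or 6.98% (6.37 to 7.63), and in the PDL1/ATZ library 101 of 11599, or 0.871% (0.710 to 1.06). The share was thus highest in PD1/PEM and lowest in PDL1/ATZ, and the intervals did not overlap. Detection of 3 markers needs depth, and the median UMIs per cell over all cells were 1532.5, 2013.5 and 1010 in the same order of libraries. After each cell was thinned to 700 nuclear-encoded UMIs and shallower cells were left out (1536, 416 and 1921 cells), the shares were 1.35% (1.11 to 1.63), 1.94% (1.61 to 2.33) and 0.248% (0.159 to 0.369). The intervals of isotype and PD1/PEM then overlapped narrowly, while PDL1/ATZ remained lowest by a wide margin. Because hearts were digested whole and each group had 1 library, a smaller number of ventricular cells and a smaller chance of recovering or detecting them cannot be told apart.

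**Figure D1:**
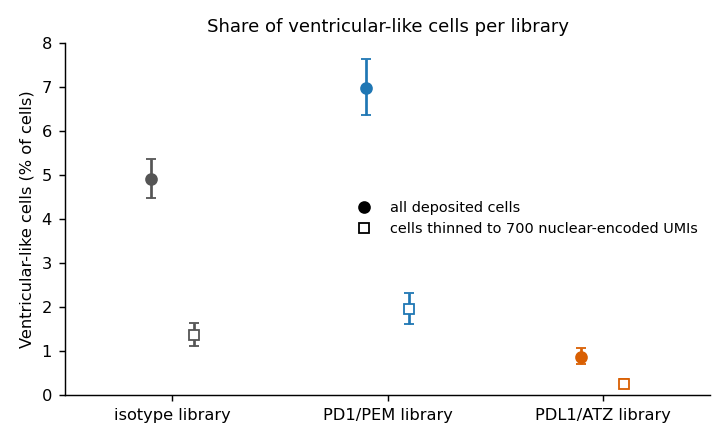
Share of deposited cells meeting the ventricular-like rule (y axis, percent) in each library (x axis), for all deposited cells (filled circles) and after thinning to 700 nuclear-encoded UMIs per cell (open squares), with exact 95% intervals as bars. PDL1/ATZ lies lowest in both, at 0.871% and 0.248%.

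Among the rule's markers, Hs3st5, a heparan sulfate sulfotransferase, had a UMI in 70.4% of ventricular-like cells of the isotype library and in 8.42% of the other cells. Myh7b, a slow-type myosin heavy chain, had one in 61.4% against 6.67%, and Adra1a, the alpha-1A adrenergic receptor, in 48.5% against 4.25%. Kcnip2, the subunit that carries Kcnd2 channels to the membrane, was found in 36.3% against 3.77%, and the long intergenic RNA Gm32171 in 27.7% against 1.65%. Fhl2, a LIM-domain protein of the sarcomere, differed from these 5 markers. It was present in 97.9% of ventricular-like cells of the isotype library, but also in 50.2% of the other cells and in 62.4% of 93 other cells that carried at least 4 macrophage markers, a cell type that should lack it. Those 93 cells had a median of 2441 UMIs, against 2709.5 in the ventricular-like cells. Adra1a and Gm32171 were each found in 3.23% of them, Kcnip2 in 5.38%, Hs3st5 in 7.53% and Myh7b in 8.60%. Fhl2 was thus not a low-background marker in these libraries, and without it the share of ventricular-like cells was 1.57% in isotype, 3.21% in PD1/PEM and 0.310% in PDL1/ATZ.

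The rule genes lie at separate places in the mouse genome (GRCm38, GENCODE M21): Adra1a at chr14:66635251-66771168, Myh7b at chr2:155611212-155634307, Fhl2 at chr1:43123074-43196984 on the minus strand, Kcnip2 at chr19:45791839-45816061 on the minus strand, Hs3st5 at chr10:36506814-36834397 and Gm32171 at chr9:33151292-33262516. Promoter sequences from RefSeq (GRCm38.p6, 250 bases before to 50 after a start) were held for 5 of the 6, and 5 motifs were searched in them on both strands: the CArG box bound by serum response factor, the MEF2 site, TGTTTAC (FoxO), TGACGTCA (CRE) and TCAAGGTCA (ERR element). Fhl2 and Myh7b are printed because they were the rule genes with a match, and only bases upstream of any annotated exon are shown, 5′ to 3′ along the gene, with the match in capitals. In Fhl2 (minus strand, chr1:43163962-43164211) the capitals mark a CArG box 31 bases before one of its starts, a motif found in 1.47% of 32851 promoters. The other RefSeq start of Fhl2 also had a CArG box, 96 bases before it, and a MEF2 site (2.92% of promoters) 31 bases before it, which are not printed. In Myh7b (plus strand, chr2:155610993-155611211) they mark the ERR element read on the other strand, 46 bases before the start, found in 0.387% of promoters. A match describes the letters and not the binding of a factor.
Fhl2: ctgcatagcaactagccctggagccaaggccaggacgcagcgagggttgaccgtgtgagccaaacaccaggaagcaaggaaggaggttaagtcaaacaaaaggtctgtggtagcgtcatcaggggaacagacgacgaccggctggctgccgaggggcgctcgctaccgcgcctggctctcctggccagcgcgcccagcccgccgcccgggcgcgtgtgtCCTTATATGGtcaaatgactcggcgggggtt
Myh7b: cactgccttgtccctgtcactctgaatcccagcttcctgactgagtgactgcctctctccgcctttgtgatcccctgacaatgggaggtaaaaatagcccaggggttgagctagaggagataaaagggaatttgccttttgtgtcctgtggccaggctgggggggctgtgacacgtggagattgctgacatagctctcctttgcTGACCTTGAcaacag

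The markers detected per cell were mostly close to the threshold. Exactly 3 markers were found in 314 of 466, 236 of 446 and 67 of 101 ventricular-like cells, and all 6 in 7, 18 and 4. Just outside the rule lay 910, 459 and 381 cells with 2 ventricular markers and fewer atrial ones, with median UMIs of 1835, 2422 and 1427. Cells with exactly 3 had medians of 2453.5, 3186 and 2308, so detection and depth moved together. The ryanodine receptor Ryr2 stood at 4388 CPM in isotype cells with 2 markers and at 6256, 7412 and 8258 CPM in those with 3, with 4 and with 5 or 6. In PDL1/ATZ the same steps were 1228, 3427, 5231 and 8278 CPM, lower than in isotype at each step but the last. That last step held 37 cells in isotype, and in PDL1/ATZ only 9 cells with 5 markers and 4 with 6. Nppa went the other way in isotype, with 4379, 3950, 3241 and 2593 CPM. Ppargc1a differed between the libraries at every step: 2539, 4302, 5308 and 6346 CPM in isotype, 813, 1741, 2150 and 2181 CPM in PD1/PEM, and 102, 216, 662 and 466 CPM in PDL1/ATZ.

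**Figure D2:**
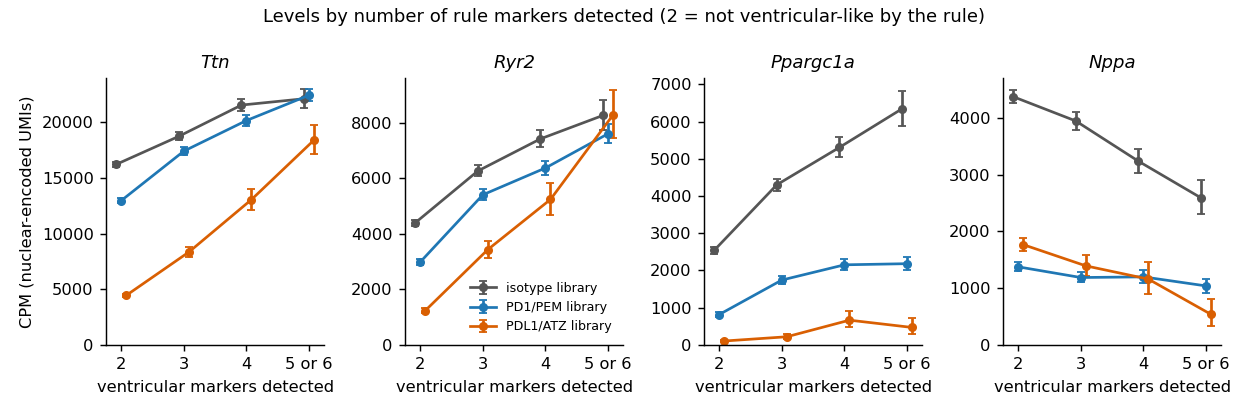
Levels of Ttn, Ryr2, Ppargc1a and Nppa (y axes, CPM with 95% counting intervals) against the number of ventricular markers detected in a cell (x axis: 2, 3, 4, and 5 or 6; cells with 2 are just outside the rule), 1 line per library. Ryr2 is higher with more markers in each library, and Ppargc1a in isotype lies above both antibody libraries at every step.

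The label was checked against genes the rule did not use. Kcnd2, the fast repolarising potassium channel that Kcnip2 partners, stood at 1074, 1604 and 1296 CPM in ventricular-like cells of isotype, PD1/PEM and PDL1/ATZ, against 639, 836 and 621 CPM in atrial-like cells. Its ratios were 1.68, 1.92 and 2.09. Myl2, the ventricular regulatory light chain, stood at 1907, 1456 and 1554 CPM against 1583, 1003 and 841 CPM, giving ratios of 1.20 (1.14 to 1.28), 1.45 (1.36 to 1.55) and 1.85 (1.59 to 2.15). In the isotype library, however, the other cells held 1908 CPM of Myl2, the same level as the ventricular-like cells. Myl3, the ventricular essential light chain, was 1.10, 1.26 and 1.86 times the atrial-like level, and Pln, the brake on the calcium pump, 1.27, 1.56 and 1.97 times. The ventricular transcription factors Irx4 and Hey2 were almost unread, with 5, 11 and 3 UMIs and 12, 10 and 2 UMIs over all ventricular-like cells, so they bear little on the label. Of the ventricular genes outside the rule, 1 of 5 with enough UMIs (Kcnd2) was at least 1.5-fold higher than in atrial-like cells in all 3 libraries. Over all 1201 genes compared, 2.75% were. The list medians were 0.27, 0.54 and 0.89 on the log2 scale. Against the other cells 1 of 7 genes of the list was higher, beside 4.27% of all 9314 genes. The median there was -0.0003 in isotype, 0.28 in PD1/PEM and 0.66 in PDL1/ATZ, so in isotype this list did not set the selected cells apart.

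Atrial genes were lower than in atrial-like cells to very different extents. The potassium channel Kcnj3 was 1.96-fold, 3.72-fold and 4.98-fold lower. Tbx5, a cardiac transcription factor held in the atrial list, was 2.39-fold, 5.36-fold and 6.24-fold lower, but had too few UMIs for the count below. Pam, the enzyme that amidates peptide hormones and is abundant in atrial granules, was 2.16-fold, 2.98-fold and 3.53-fold lower. The abundant atrial genes Nppa, Myl7 and Sln differed less: Nppa by 1.27-fold, 1.46-fold and 1.31-fold, the atrial light chain Myl7 by 1.10-fold, 1.34-fold and 1.49-fold, and the calcium pump regulator Sln by 1.22-fold, 1.23-fold and 1.23-fold. Nr2f2, a regulator of atrial identity, did not separate the cells, with ratios between 0.932 and 1.09. Of the 6 atrial genes outside the rule with enough UMIs in every library, 2 (Kcnj3 and Pam) were at least 1.5-fold lower in all 3. Over all 1201 genes compared, 1.33% were.

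**Figure D3:**
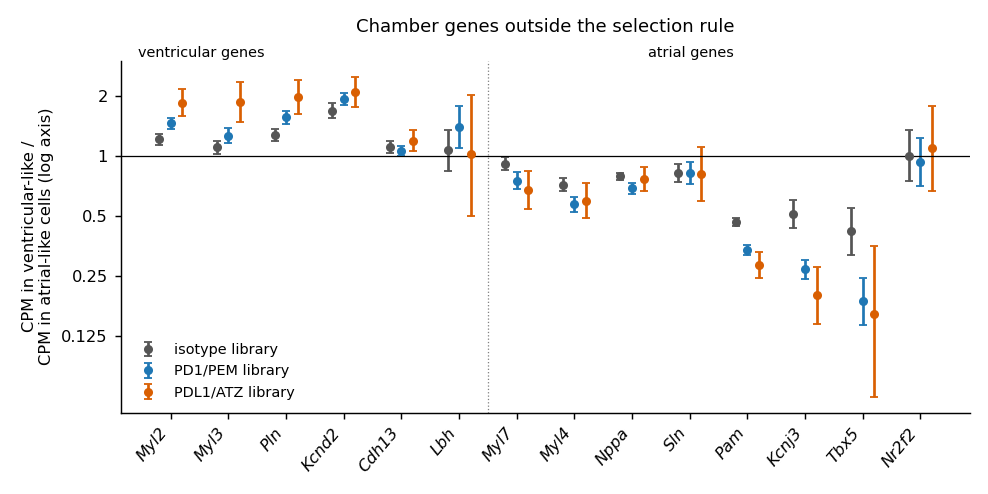
Ratio of the level in ventricular-like cells to that in atrial-like cells of the same library (y axis, log scale) for 6 ventricular and 8 atrial genes outside the rule (x axis), with points for libraries and bars for 95% counting intervals. Kcnd2, Myl2 and Pln lie above 1 and Pam, Kcnj3 and Tbx5 below 1 in each of the 3 libraries. Tbx5 had too few UMIs to enter the counts of genes at least 1.5-fold apart.

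Markers of other cell types were present in the selected cells. At least 3 of 10 endothelial markers were detected in 85.4%, 96.0% and 91.1% of ventricular-like cells, and at least 3 of 10 fibroblast markers in 77.3%, 90.1% and 50.5%. The summed level of the fibroblast markers was 3800, 4570 and 1846 CPM, that of the endothelial markers 3246, 3900 and 4977 CPM, and that of the haemoglobin and other erythroid markers 4616, 7893 and 7795 CPM. Macrophage markers summed to 484, 540 and 465 CPM. Of 10 lymphocyte markers 6, 6 and 8 had no UMI at all, and no selected cell held 3 of them. A doublet score marked 81, 54 and 31 of the ventricular-like cells (17.4%, 12.1% and 30.7%) as probable pairs of cells. The share marked over all cells was lower, at 7.61%, 5.10% and 9.28%. Only 15, 3 and 4 ventricular-like cells held fewer than 3 markers of every other type. The smooth muscle markers counted there include Pln, used above as a ventricular gene, so a muscle cell's own RNA can count as another type. The part that RNA of other cells takes in the results below was not tested. Isotype and PD1/PEM shared 23 cell barcodes, none of them among the selected cells.

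Within each library, the 12 leading genes of ventricular-like over other cells were Prune2, Fgf13, Tacc2, Ppargc1a, Pde4d, Fstl4, Cacna1c, Mhrt, Esrrb, Rbm20, Fhod3 and Esrrg, whose known roles are mixed. Of 9314 genes with at least 100 UMIs over both sets of cells in each library, 398 (4.27%) were higher and 170 (1.83%) lower by 1.5-fold or more in all 3 libraries, the 13 rule genes left out. Without the PDL1/ATZ library the counts were 491 and 428 of 9516. Cacna1c stood at 6725, 6783 and 5871 CPM in ventricular-like cells, against 2426, 1347 and 592 CPM in the other cells, a ratio of 2.77, 5.04 and 9.92. Rbm20, the splicing factor that trims titin transcripts, stood at 2164, 2265 and 2389 CPM against 776, 472 and 147 CPM, and Fgf13, which tunes sodium channels, at 1693, 2289 and 1581 CPM against 540, 399 and 121 CPM. Pde4d, a phosphodiesterase that ends cyclic AMP signals near the ryanodine receptor, was 2.90, 4.66 and 7.75 times the level of the other cells. Levels within the selected cells were thus similar in the 3 libraries for Cacna1c, Rbm20, Fgf13 and Pde4d. The other cells held less of these in PD1/PEM and least in PDL1/ATZ. The similarity did not hold for all 12 genes. In ventricular-like cells Ppargc1a stood at 4819, 1964 and 363 CPM, Tacc2 at 2555, 1672 and 835 CPM and Prune2 at 1121, 624 and 605 CPM.

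Esrrg and Esrrb, nuclear receptors of the energy programme, showed ratios in the same order. Esrrg, an orphan receptor that works with PGC-1 alpha, stood at 801, 879 and 746 CPM in ventricular-like cells and was 2.84, 4.38 and 7.49 times the level of the other cells, and its relative Esrrb was 3.13, 4.82 and 7.11 times that level. By list, 8 of 17 calcium-handling genes, 7 of 17 cardiac transcription factors, 7 of 18 genes of the PGC-1, PPAR and ERR network and 6 of 16 adrenergic and cyclic AMP genes were higher in all 3 libraries. None of 42 nuclear genes of oxidative phosphorylation was, which is little evidence where 4.27% of all genes were. The actin regulator Fhod3 and Mhrt, a non-coding RNA antisense to Myh7, were also among the 12 highest, although reads of an antisense pair may be mixed. The lowest 12 included genes of fibroblasts and vessels: the glypican Gpc6 stood at 408, 430 and 550 CPM against 667, 828 and 931 CPM, and the prostacyclin synthase Ptgis at 83.0, 132 and 46.8 CPM against 153, 205 and 145 CPM.

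Against atrial-like cells, 33 of 1201 genes (2.75%) were higher and 16 (1.33%) lower by 1.5-fold or more in all 3 libraries, and 123 and 70 of 4618 genes without PDL1/ATZ. Tacc2, a centrosomal protein, stood highest by interval, at 2555, 1672 and 835 CPM in ventricular-like cells against 809, 476 and 229 CPM in atrial-like ones. Ratios for Prune2, a large cytoplasmic protein, were 2.62, 2.67 and 3.38, and those for Cpeb3, a translational regulator, 2.46, 2.28 and 2.54. Neat1, the nuclear RNA that builds paraspeckles, and the actin-binding Coro6 and Limch1 were among the 12 as well. On the low side, Lrrc4c, a synaptic adhesion protein, was 4.92-fold, 6.14-fold and 8.83-fold lower, with 264, 398 and 414 CPM in atrial-like cells. Erbb4, the neuregulin receptor, stood at 692, 823 and 375 CPM against 1655, 2321 and 1579 CPM, and Chrm2 at 913, 1670 and 1273 CPM against 1580, 2817 and 2080 CPM. The muscarinic receptor gene Chrm2 and the channel gene Kcnj3 were thus both among the 12 lowest. So was Gnao1, a G protein alpha subunit, which was 1.86-fold, 2.06-fold and 2.33-fold lower. Other genes of acetylcholine signalling are not described here.

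Between libraries, ventricular-like cells of PD1/PEM were compared with those of isotype over 4253 genes with at least 100 UMIs in the pair. Past 1.5-fold, 294 genes (6.91%) were higher and 224 (5.27%) lower in PD1/PEM, and the median log2 ratio over all 4253 was 0.00. The 12 leading low genes included Nppb, Ppargc1a and 3 genes of sugar, glycogen and energy control (Hk2, Phka1 and Prkag2), and the 12 leading high genes included 3 hormone or transmitter receptors (Nr3c2, Ghr and Chrm2), Fbxo32 and Psme4 of protein breakdown, and Retreg1 of autophagy. No replicate stands behind these ratios, so they compare 2 libraries and not the treatments. Beside them, the summed erythroid markers of the selected cells were 4616 CPM in isotype and 7893 CPM in PD1/PEM.

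Both natriuretic peptide genes were lower in PD1/PEM. Nppb, which encodes natriuretic peptide B (chr4:147985788-147987205), stood at 179, 43.0 and 11.7 CPM in isotype, PD1/PEM and PDL1/ATZ, so both antibody libraries were below isotype. In PD1/PEM it was 4.16-fold lower (3.05 to 5.76), and among the other cells 6.68-fold lower; in ventricular-like cells with at most 25% mitochondrial UMIs the log2 ratio was -1.41 instead of -2.05. Nppa, its neighbour on the chromosome (chr4:148000722-148002079), stood at 3595, 1158 and 1194 CPM and was 3.104-fold lower (2.92 to 3.30). After thinning it was read in 92.2%, 58.2% and 62.4% of ventricular-like cells, below the 96.0%, 62.4% and 76.3% of the other cells; the intervals overlapped in PD1/PEM only. Of the 14 tested genes of the natriuretic and stress list, 13 were below 0 in PD1/PEM, 4 of them at least 1.5-fold, while Cyr61, a matrix-associated growth signal, was at least 1.5-fold higher, with 116 and 215 CPM. The list had a median log2 ratio of -0.46 in ventricular-like cells and -0.66 in other cells. Lower levels of these genes were thus also found in cells outside the rule.

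The coactivator gene of the PGC-1 alpha programme was lower, and other genes of the network differed less. Ppargc1a (chr5:51454250-51567726, minus strand) stood at 4819, 1964 and 363 CPM. It was 2.45-fold lower in PD1/PEM (2.34 to 2.58) and 13.3-fold lower in PDL1/ATZ (10.8 to 16.5), and in the other cells 3.89-fold and 34.2-fold lower. Over the 15 isotype and 4 PDL1/ATZ cells with fewer than 3 markers of every other type, the PDL1/ATZ log2 ratio was -1.37 instead of -3.72. At equal depth 84.4% (80.8 to 87.6), 56.2% (51.4 to 60.8) and 16.8% (10.1 to 25.6) of ventricular-like cells had a UMI of it, and 58.1%, 20.2% and 3.0% of the other cells. Its partner receptors did not share the size of this difference: Esrrg stood at 801, 879 and 746 CPM, Ppara, which turns on fatty acid oxidation, at 494, 357 and 418 CPM, and Esrra at 102, 60.8 and 113 CPM. Of 14 tested genes of the network, 11 were below 0 in PD1/PEM and 2 at least 1.5-fold lower, Ppargc1a and Esrra, with a median of -0.39, against -0.03 in atrial-like cells and -0.57 in the other cells.

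Genes of the respiratory chain were lower as a group, by small steps. All 41 tested nuclear genes of oxidative phosphorylation lay below 0 in PD1/PEM, 10 of them at least 1.5-fold, with a median of -0.43 in ventricular-like cells and -0.47 in other cells. The complex I subunit Ndufs3 stood at 129, 79.4 and 129 CPM, 1.62-fold lower in PD1/PEM but level in PDL1/ATZ. Ndufa4, a subunit tied to cytochrome oxidase, stood at 701, 447 and 379 CPM. The 13 mitochondrially encoded genes had a median of 0.00 in PD1/PEM, with none at least 1.5-fold apart, and -2.23 in PDL1/ATZ, where all 13 were at least 1.5-fold lower. The 10 abundant cardiomyocyte transcripts listed as a gauge of free RNA were likewise all below 0 in PD1/PEM, with a median of -0.37 (-0.61 in the other cells), and their part in the respiratory chain result was not tested.

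Some transcripts of glucose and glycogen enzymes were lower. Hk2, the hexokinase that traps glucose (chr6:82725025-82774454, minus strand), stood at 451, 206 and 144 CPM and was 2.19-fold lower in PD1/PEM (1.88 to 2.56). Phka1, a subunit of the kinase that starts glycogen breakdown, stood at 298, 99.7 and 133 CPM and was 2.99-fold lower (2.42 to 3.71). Both were also lower in the other cells, by 1.997-fold and 2.26-fold. The phosphofructokinase Pfkp stood at 175, 84.3 and 54.7 CPM. Pfkfb2, which makes the activator of phosphofructokinase, was 2.26-fold lower in PD1/PEM, with 75.2 and 33.2 CPM, but stood at 137 CPM in PDL1/ATZ. Prkag2, a regulatory subunit of the energy sensor AMPK, stood at 351, 147 and 133 CPM. Pdk4, which shuts pyruvate out of the mitochondria, was the 1 gene of 25 in the glucose list at least 1.5-fold higher in PD1/PEM, with 72.3, 115 and 35.1 CPM, while 6 were at least 1.5-fold lower.

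Genes of insulin and growth factor signalling and of protein breakdown did not move together. Grb14, an adaptor that blocks the insulin receptor, stood at 104, 264 and 199 CPM and was 2.53-fold higher in PD1/PEM (2.03 to 3.18), while atrial-like cells held 96.7 and 174 CPM and the other cells 93.9 and 96.6 CPM. Fbxo32, the muscle ubiquitin ligase atrogin-1, stood at 129, 279 and 230 CPM and was 2.16-fold higher (1.76 to 2.66), against 145 and 250 CPM in atrial-like and 129 and 142 CPM in the other cells. It entered the ranking through its level in PD1/PEM, so the contrast with the other cells there partly follows from the selection. Foxo3, the factor that drives Fbxo32 in wasting muscle, stood at 156, 262 and 187 CPM, and Irs2, which passes on the insulin signal, at 138, 229 and 113 CPM. The receptor Igf1r went the other way, with 694, 383 and 410 CPM, 1.81-fold lower in PD1/PEM. Of 20 tested genes of the FoxO, atrophy and insulin list 5 were higher and 1 lower by 1.5-fold or more, with a median of 0.07, and the muscle ligase Trim63, at 204, 236 and 215 CPM, was not among them. Psme4, an activator of the proteasome, stood at 308, 614 and 496 CPM, and fell just short of 1.5-fold once cells were thinned (log2 0.58).

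Retreg1, a receptor that feeds the endoplasmic reticulum into autophagy, stood at 216, 458 and 121 CPM in ventricular-like cells, 2.12-fold higher in PD1/PEM (1.81 to 2.49) and lower in PDL1/ATZ. From isotype to PD1/PEM it stood at 198 and 252 CPM in atrial-like cells and at 166 and 147 CPM in the other cells. A UMI of it was found in 34.5% and 60.8% of ventricular-like cells of these libraries, and in 14.3% (11.2 to 17.8) and 22.7% (18.9 to 26.9) at equal depth. Its gene lies at chr15:25843180-25973687. Its RefSeq promoter is shown because it held a CRE, the cyclic AMP response element found in 1.55% of promoters, 148 bases before one of its starts (plus strand, chr15:25843048-25843179, capitals mark the CRE). The FoxO motif was present in a promoter of 1 of 18 genes of the FoxO, atrophy and insulin list (Trim63), and of 956 among all 27025 genes with a promoter in the table.
Retreg1: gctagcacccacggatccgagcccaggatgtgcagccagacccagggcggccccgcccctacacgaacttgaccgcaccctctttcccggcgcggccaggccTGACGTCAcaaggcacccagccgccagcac

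Hormone and neurotransmitter receptors were among the highest in PD1/PEM. Nr3c2, the mineralocorticoid receptor (chr8:76899442-77245012), stood at 162, 426 and 488 CPM, 2.63-fold higher in PD1/PEM (2.20 to 3.15) and 3.01-fold higher in PDL1/ATZ (2.37 to 3.82). It was higher in the other cells too, by 1.77-fold and 2.60-fold. Ghr, the growth hormone receptor, stood at 364, 734 and 749 CPM, against 405 and 500 CPM in the other cells of isotype and PD1/PEM. Like Fbxo32, it entered the ranking through its level in PD1/PEM. Chrm2 stood at 913, 1670 and 1273 CPM, 1.83-fold higher in PD1/PEM (1.69 to 1.98), while atrial-like cells went from 1580 to 2817 CPM and the other cells held 516 and 551 CPM. Both antibody libraries were therefore above isotype for these 3 receptors. Angpt1, a ligand that steadies vessels, stood at 58.6, 148 and 85.9 CPM, and Fign, a microtubule-severing protein, at 42.0, 128 and 160 CPM, with a log2 ratio in PD1/PEM of 1.60 that was 2.26 in cells with at most 25% mitochondrial UMIs.

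Lists of channel and cell contact genes had medians of different sign in PD1/PEM. The lists are short, and over all tested genes 6.91% were higher and 5.27% lower by 1.5-fold or more. The potassium channel list had 7 of 9 tested genes above 0, 1 of them at least 1.5-fold higher, and a median of 0.39 in ventricular-like cells of PD1/PEM, 0.39 in atrial-like cells and -0.19 in the other cells. Kcnd2, at 1074, 1604 and 1296 CPM, was 1.49-fold higher (1.39 to 1.61) and Kcnj3, at 195, 328 and 176 CPM, 1.68-fold higher (1.42 to 2.001). In the intercalated disc, where cardiomyocytes join end to end, the desmosomal Pkp2 stood at 158, 274 and 254 CPM and N-cadherin (Cdh2) at 585, 913 and 910 CPM, both at least 1.5-fold higher in PD1/PEM and PDL1/ATZ. In PD1/PEM their list had 10 of 14 genes above 0, 2 past 1.5-fold upward, and a median of 0.14. Its median there was 0.13 in atrial-like cells and -0.18 in the other cells. In PDL1/ATZ the disc list did not rise as a group: 6 of 12 tested genes lay above 0, with a median of -0.10. Past 1.5-fold, 2 of these genes went up and 3 went down. The sodium channel and gap junction list had a median of -0.30 in PD1/PEM, against -0.03 in atrial-like and -0.44 in other cells. Its genes were split almost evenly, with 4 of 7 below 0, 2 at least 1.5-fold lower and none at least 1.5-fold higher. Among them the sodium pump subunit Atp1b1 stood at 179, 102 and 82.0 CPM.

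Calcium-handling genes were a little lower as a list in ventricular-like cells of PD1/PEM than of isotype, with 12 of 17 tested genes below 0. Cacna1c stood at 6725 CPM in isotype and 6783 CPM in PD1/PEM, while atrial-like cells held 4019 and 2605 CPM of it. Its log2 ratio was 0.01 in ventricular-like cells, against -0.85 in the other cells. Ryr2 stood at 6811 and 6180 CPM (log2 -0.14, against -0.76), and Slc8a1, the sodium-calcium exchanger, at 3297 and 3295 CPM. None of the 17 was at least 1.5-fold apart in PD1/PEM, which is little evidence where 6.91% of all genes were higher and 5.27% lower. The median was -0.21, against -0.20 in atrial-like and -0.58 in the other cells. In PDL1/ATZ 14 of 16 were below 0 and 6 at least 1.5-fold lower, with a median of -0.44. Sarcomere genes were a little lower in PD1/PEM: medians were -0.39 for the thick filament, -0.18 for the thin filament and -0.32 for the Z-disc. In atrial-like cells these medians were -0.30, -0.29 and -0.22, and in the other cells -0.66, -0.48 and -0.62. Titin itself stood at 19933 and 19374 CPM, the essential light chain Myl3 at 1269 and 793 CPM, and the cross-linker Flnc at 284 and 147 CPM. Lmod2, which sets the length of thin filaments, was the exception on the high side, at 376, 713 and 340 CPM, 1.90-fold higher in PD1/PEM (1.68 to 2.14) and lower in the other cells (log2 -0.31).

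The remaining leading genes were of mixed roles. On the high side, Slc24a2, a potassium-dependent sodium-calcium exchanger, stood at 21.5, 68.9 and 66.4 CPM, and Gcnt1, which branches O-linked sugars, at 25.4, 74.6 and 31.2 CPM. Arhgap20, a GTPase-activating protein, stood at 25.4, 83.5 and 42.9 CPM. On the low side, Pdzrn3, a ubiquitin ligase, stood at 957, 415 and 324 CPM, 2.31-fold lower in PD1/PEM (2.07 to 2.57), and the vesicle transport GTPase Rab30 at 252, 85.9 and 58.6 CPM. Ptgds, which makes prostaglandin D, stood at 172, 66.5 and 54.7 CPM, and Gne, which starts sialic acid synthesis, at 82.0, 25.9 and 11.7 CPM. PDL1/ATZ lay on the same side of isotype as PD1/PEM for each of these 7 genes.

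**Figure D4:**
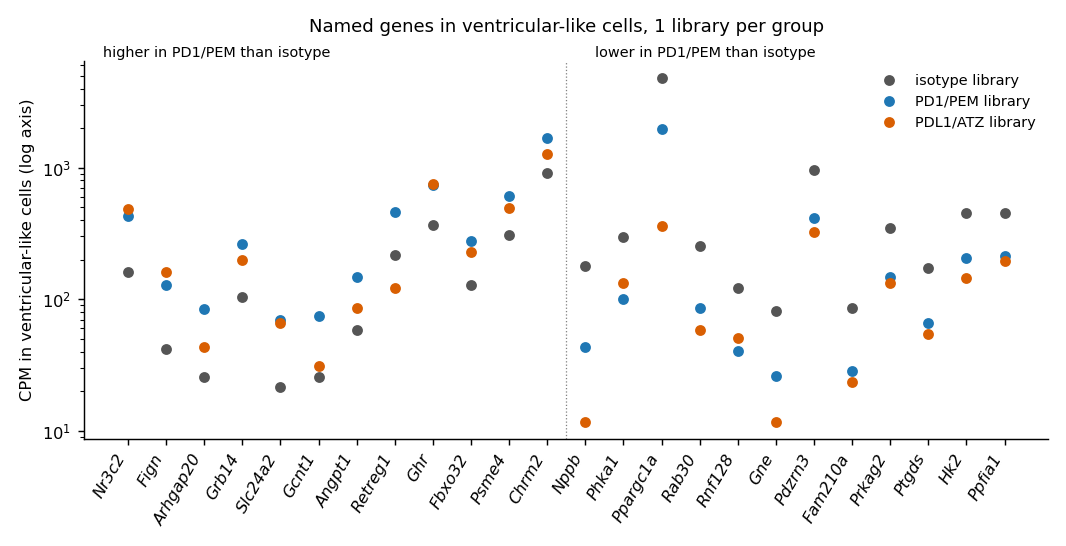
Level in ventricular-like cells (y axis, CPM on a log scale) of the 12 highest and 12 lowest genes of the PD1/PEM comparison by interval (x axis), 1 point per library and no error bars. PDL1/ATZ lies on the same side of isotype as PD1/PEM for each of these genes except Retreg1, which stood at 216 CPM in isotype and 121 CPM in PDL1/ATZ.

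Immediate early genes, which switch on within minutes of a stimulus, were higher in PD1/PEM and not in PDL1/ATZ. Of 22 tested, 20 were above 0 in PD1/PEM and 11 at least 1.5-fold higher, with a median of 0.58, and 0.50 in the other cells. Egr3, a zinc-finger factor, stood at 37.1, 149 and 27.3 CPM, 4.02-fold higher (2.82 to 5.86), and the nuclear receptor Nr4a1 at 181, 449 and 183 CPM. All 7 tested feedback inhibitors of the ERK pathway were above 0 in PD1/PEM and 4 at least 1.5-fold higher, with a median of 0.61. In PDL1/ATZ only 3 of them could be compared, with 2 above 0, 1 at least 1.5-fold higher and a median of 0.44. Errfi1, which damps the epidermal growth factor receptor, stood at 168, 513 and 226 CPM and the phosphatase Dusp1 at 270, 640 and 207 CPM. In PDL1/ATZ 15 of 19 immediate early genes were below 0, with a median of -0.35. The other cells moved alike in size: Egr3 stood at 39.8, 227 and 26.8 CPM there.

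Many immune-related genes were rarely read. Cd274, the gene of PD-L1, had 8, 13 and 1 UMIs over all ventricular-like cells of the 3 libraries, and Pdcd1, the gene of PD-1, 1, 0 and 0, so no direction can be given for either target. Of 10 tested genes of antigen presentation none was at least 1.5-fold apart in PD1/PEM, which is little evidence where 6.91% of all genes were higher and 5.27% lower, and B2m, the light chain of MHC class I, stood at 484, 447 and 410 CPM. Of 10 tested genes of the NF-kappaB and cytokine list, 7 were above 0 with a median of 0.16, and 2 were at least 1.5-fold higher: the chemokine Cxcl1, at 27.3 and 60.8 CPM, and the regulator Nfkbiz, at 152 and 232 CPM. Among 5 tested interferon genes the median was 0.36 in ventricular-like cells and 0.63 in the other cells, and 1 gene was at least 1.5-fold higher, Ifi27l2a, at 43.0, 93.2 and 54.7 CPM. Of 11 tested clock genes 3 were at least 1.5-fold higher in PD1/PEM: Per1 at 94.7 and 153 CPM, Per3 at 43.9 and 72.1 CPM and Dbp at 61.5 and 98.9 CPM.

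**Figure D5:**
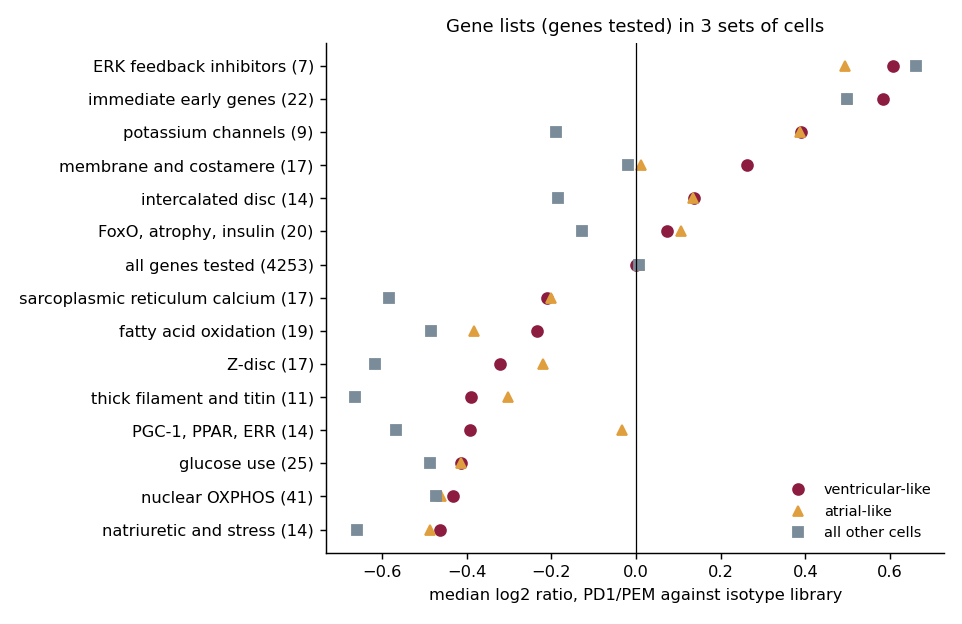
Median log2 ratio of PD1/PEM to isotype (x axis) over the tested genes of 14 lists and over all tested genes (y axis, number tested in brackets) in ventricular-like, atrial-like and all other cells. Potassium channels and the intercalated disc lie right of 0 in ventricular-like and atrial-like cells and left of 0 in the other cells.

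The 101 ventricular-like cells of PDL1/ATZ gave 256174 nuclear-encoded UMIs, against 1024125 in isotype, and their levels are less certain. Of 2639 genes tested, 397 (15%) were higher and 507 (19.2%) lower than in isotype by 1.5-fold or more, so 43.9% of the genes past 1.5-fold were higher. When levels were scaled to all UMIs instead, the median log2 ratio over all genes was 0.28 instead of -0.01, 779 genes were higher and 279 lower, and 73.6% of those past 1.5-fold were higher. Directions of genes near the threshold therefore depend on the scaling. Gse1, part of a histone deacetylase complex, stood at 21.5 CPM in isotype and 386 CPM in PDL1/ATZ, 18.0-fold higher (11.2 to 29.999), and in the other cells 12.6-fold higher. Stard13, a GTPase-activating protein with a lipid-transfer domain, stood at 61.5 and 492 CPM, and the catenin Ctnnd1 at 49.8 and 234 CPM, with similar ratios in the other cells. Only symbols without any UMI in 1 set of libraries were left out. Symbols read unevenly but present in both sets were kept, and whether uneven reading enters these ratios was not tested. On the low side, Optn, an autophagy receptor, stood at 224 and 46.8 CPM (log2 -2.20, and -1.38 over cells with at least 4 markers), and Tacc2 at 2555 and 835 CPM.

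By list, ventricular-like cells of PDL1/ATZ had 12 of 12 tested natriuretic and stress genes below 0, 10 of them at least 1.5-fold, with a median of -1.23. The Z-disc list had a median of -0.68, with 17 of 17 genes below 0, and the respiratory chain -0.51, with 34 of 40 below 0. Fatty acid genes had 14 of 15 below 0 and a median of -0.58, and glucose genes 18 of 22 and -0.64. Potassium channels again had 7 of 9 above 0, with a median of 0.44. In PD1/PEM, none of 4213 genes tested in both sets of cells was at least 1.5-fold higher in ventricular-like and at least 1.5-fold lower in atrial-like cells, or the reverse, a difference for which no test exists here. The comparisons of PD1/PEM and PDL1/ATZ share the isotype library, so a value that is unusual in isotype moves both.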

How the data were processed

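Whole-heart digests of NOD/SCID mice were captured with 10x Genomics 3′ chemistry (v3.1, per the labels' protocols), 3 libraries of 3 pooled hearts each. The deposited matrices hold raw UMI counts per gene and cell, made by the authors with Cell Ranger, Seurat and the mm10 build, per the submitters' processing notes, which give no versions or filters. Cells were selected by the marker rule, the UMIs of a library's selected cells were added up, and levels were set per 1000000 nuclear-encoded UMIs (CPM). Ratios have exact conditional binomial 95% intervals, log2 ratios a pseudocount of 0.5 UMIs, and genes were compared from 100 UMIs over the pair upward, mitochondrial genes apart. With 1 library per group no test across samples exists, so "at least 1.5-fold" is a size and not a significance.

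Named genes are the 12 highest and 12 lowest in PD1/PEM and the 6 highest and 6 lowest in PDL1/ATZ by the interval bound that lies closest to equal levels. They had to be past 1.5-fold and to stand no lower in the selected than in the other cells of 1 or both libraries. Some high genes, Fbxo32, Ghr, Angpt1, Gcnt1 and Slc24a2 among them, stood below the other cells in isotype and met this through PD1/PEM. For these, a larger difference in ventricular-like than in other cells partly follows from the selection. The named genes also include the 12 leading genes per direction of the contrasts within a library and up to 4 genes of each list described, 47 lists being held. Haemoglobins, sex-linked genes and clone names were left out of rankings. A few further genes (Esrrg, Ppara, Slc8a1, B2m, Trim63, Ryr2, Ttn, Cacna1c and Ndufa4 among them) are given for their role. The rule, the members and the lists were chosen with earlier results of these data known. Doublets were scored against simulated pairs (30 components, 50 neighbours) and the highest 0.8% per 1000 cells marked, without removal. Cells were thinned by random draws without replacement to 700 nuclear-encoded UMIs. The ratio step was tested on simulated data. Alternatives covered scaling, count minimum, pseudocount, fold, marker rule, mitochondrial limit, doublets and depth. Python 3.11.15, NumPy 2.4.6, SciPy 1.17.1, pandas 2.3.3, scikit-learn 1.9.0 and Matplotlib 3.10.9 were used.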

Additional observations from a re-analysis of the deposited data

How the results depend on the processing

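The share of ventricular-like cells followed the rule and the depth, and the cause was not tested beyond that. In the order isotype, PD1/PEM and PDL1/ATZ it was 14.5%, 14.2% and 4.16% with at least 2 markers, and 1.60%, 3.29% and 0.293% with at least 4. Without Adra1a it was 3.49%, 5.56% and 0.698%, without Myh7b 3.04%, 4.77% and 0.578%, without Fhl2 1.57%, 3.21% and 0.310%, without Hs3st5 2.67%, 4.40% and 0.50004%, and without Gm32171 4.25%, 6.15% and 0.681%. Without Kcnip2 it was 3.93% in isotype and 6.07% in PD1/PEM, and without the condition on atrial markers 5.50% and 7.67%. Among cells with at most 25% mitochondrial UMIs it was 8.95% and 10.8%. Without marked doublets it was 4.38% in isotype and 0.665% in PDL1/ATZ. Thinning to 700 nuclear-encoded UMIs gave 1.35%, 1.94% and 0.248%, and thinning to 700 UMIs of all genes 0.665%, 1.04% and 0.116%. PDL1/ATZ was lowest in each of these, and PD1/PEM exceeded isotype in each but the rule with at least 2 markers.

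Counts of genes past the fold followed the count minimum and the number of cells. In PD1/PEM 547 genes were higher and 467 lower at a minimum of 50 UMIs, 160 and 119 at 200 UMIs, 4704 and 4608 with no minimum, 52 and 36 at 2-fold, and 103 and 88 in thinned cells. With at least 4 markers 195 were higher, and with at least 2 markers 343 were lower. In PDL1/ATZ 779 were higher and 279 lower when scaled to UMIs of all genes, 906 and 869 at 50 UMIs, 158 and 267 at 200 UMIs, 7001 and 2907 with no minimum, 112 and 204 at 2-fold, 141 and 221 with at least 4 markers, 1121 and 906 with at least 2, and 88 and 163 in thinned cells. Under the mitochondrial limit 259 were higher. Leaving out cells with 3 or more markers of any other cell type left 9 genes to compare in PD1/PEM, with 1 higher and 1 lower, and 16 in PDL1/ATZ, with 5 and 2.

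Of the list medians, 2 of PD1/PEM moved by more than their spread at a minimum of 200 UMIs, atrial genes outside the rule to -0.87 and ERK feedback to 1.24. In PDL1/ATZ, scaling to all UMIs moved ventricular genes outside the rule to -0.081, the thick filament to -0.22, the thin filament to -0.39, calcium handling to -0.15 and the abundant cardiomyocyte transcripts to -0.50. A minimum of 200 UMIs moved the sodium channel and gap junction list to -0.50 and the cytokine list to 0.58. Within libraries, an alternative chosen after seeing the data, without PDL1/ATZ, gave 123 genes higher and 70 lower than in atrial-like cells and 428 lower than in the other cells. Of 440 values of single genes under the alternatives, 376 stayed within their interval, 63 moved and 1 reversed: Fbxo32 in PDL1/ATZ had a log2 ratio of -0.023 with at least 2 markers, and the cause was not tested. No paired analysis was possible because each group had 1 library. Depth limits genes under 100 UMIs over a pair, Cd274 and Pdcd1 among them, and differences between hearts within a group are not measured.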

Other observations

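Further gene groups of the ventricular-like cells are given here as values. In PD1/PEM 13 of 17 tested genes of the membrane and costamere list, which ties the sarcomere to the cell surface, were above 0 with a median log2 ratio of 0.26, against 0.01 in atrial-like and -0.02 in other cells. Of 15 tested genes of the glucocorticoid list, 10 were above 0 and 5 at least 1.5-fold higher in PD1/PEM, and the members did not move together. Sgk1, a kinase that raises sodium transport, stood at 193, 306 and 121 CPM in isotype, PD1/PEM and PDL1/ATZ, whereas Fkbp5, a chaperone partner of the receptor, stood at 335, 244 and 156 CPM.

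Stress lists had medians near 0 in PD1/PEM. The heat shock list had 8 of 14 genes above 0 and a median of 0.02, and the unfolded protein list 5 of 12 and -0.03. The antioxidant list had 4 of 15 above 0 and a median of -0.14, with the mitochondrial superoxide dismutase Sod2 at 185, 101 and 117 CPM. Vegfa, the growth factor for vessels, stood at 482, 279 and 195 CPM, 1.73-fold lower in PD1/PEM (1.505 to 1.99) and 2.47-fold lower in PDL1/ATZ (1.85 to 3.38), with 202, 107 and 47.5 CPM in the other cells. Bmp10, an atrial growth factor, had 70, 8 and 0 UMIs over all ventricular-like cells, too few for the comparison.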
